A study of Homo sapiens with 6 samples.

Results

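The expression of 9 genes, the complement genes C3, CFB, C1R, C1S, SERPING1, CD46, CD55 and CD59 and the tissue factor gene F3, was compared by RNA sequencing in MDA-MB-231 cells, a human triple-negative breast cancer line, and in 231-BR, the brain-seeking line that was derived from them. Each line was sequenced as 3 libraries of poly(A) RNA. The 231-BR cells were kept in medium with the selection drug G418 and the MDA-MB-231 cells in the same medium without it, and neither line carried another treatment. The lines also came from different sources, so that line, drug and source cannot be told apart, and each line stands for itself alone. The 9 genes were picked by symbol from the 17039 genes of the table, with their difference between the lines already known. Their levels and fold changes are therefore given as a description without a test, and tests are given only for other genes of the pathway. Values are FPKM, the number of sequenced fragments of a gene scaled to the length of its transcript and to the size of the library. Length is thereby taken into account when genes are compared, but reads divided between overlapping or similar genes are not.

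Complement is a chain of proteases and binding proteins that marks and lyses cells. C1R and C1S are the proteases of the first component and start the classical pathway, CFB forms the convertase of the alternative pathway, and C3 is the protein on which the pathways meet. SERPING1 encodes the C1 inhibitor. CD46 and CD55 stop the convertases on the cell's own membrane, and CD59 stops the membrane attack complex. F3 encodes tissue factor, the membrane receptor that starts blood coagulation and is often found on tumour cells.

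Libraries of the same line were alike. Over the 11124 genes with a mean of at least 1 FPKM, the lowest correlation of log2 values within a line was 0.997, and the highest between the lines was 0.902, both across genes, which are not independent replicates. Read counts were not used here, so the depth is unknown. The replicates are described as independent in the series' design and as parallel in the study's methods, and neither says that they were separate cultures, so that p-values measure the spread between these samples, which may be technical. Markers of carcinoma cells were mixed in both lines. Of the epithelial markers, KRT8 and KRT18 lay between 173.92 and 365.42 FPKM and EPCAM between 4.44 and 9.31 FPKM, whereas CDH1 reached at most 0.03 FPKM and KRT7 averaged 77.0 FPKM over the MDA-MB-231 and 0.713 FPKM over the 231-BR libraries. Of the mesenchymal markers, VIM lay between 2273.12 and 2565.71 FPKM and FN1 between 7.54 and 20.54 FPKM, whereas CDH2 reached at most 0.16 FPKM. PGR reached at most 0.07 FPKM and ESR1 at most 1.08 FPKM, and ERBB2 lay between 4.75 and 10.23 FPKM. Markers of other cells were low, with exceptions. Of 5 leukocyte markers, PTPRC and CD3E reached at most 0.04 FPKM, but CD68, a lysosomal protein, lay between 61.93 and 84.18 FPKM, and the list summed to 62.35 to 65.14 FPKM in MDA-MB-231 and 81.14 to 84.73 FPKM in 231-BR cells. Of 3 endothelial markers, CDH5 reached at most 0.03 FPKM and KDR 1.64 FPKM, with sums of 0.64 to 0.84 and 1.80 to 2.12 FPKM. Of 4 markers of hepatocytes, the main source of complement in blood, ALB reached at most 0.02 FPKM and SERPINA1 2.18 FPKM, with sums of 1.69 to 2.18 and 0.78 to 1.11 FPKM. APOA1 went against these sums, with 0.00 FPKM in every MDA-MB-231 library and 0.23, 0.23 and 0.28 FPKM in the 231-BR libraries. Of 5 markers of glia and neurons, 4 stayed at or under 0.1 FPKM in every library. RBFOX3 had 0.00, 0.03 and 0.00 FPKM in MDA-MB-231 and 0.12, 0.16 and 0.10 FPKM in 231-BR cells. The list summed to 0.00 to 0.08 FPKM in MDA-MB-231 and 0.16 to 0.27 FPKM in 231-BR cells. The part of these markers in the differences was not tested.

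C3 was expressed in MDA-MB-231 cells and was nearly missing in 231-BR cells. It had 14.00, 14.05 and 13.14 FPKM in the MDA-MB-231 libraries and 0.13, 0.05 and 0.06 FPKM in the 231-BR libraries. Every 231-BR library was far below every MDA-MB-231 library. The means were 13.7 ± 0.51 and 0.0800 ± 0.044 FPKM (SD, n = 3 each), a ratio of 172 in FPKM and a log2 fold change of -6.29 on the scale of log2(FPKM + 0.1). The size depended on the pseudocount, with -3.77 at a pseudocount of 1 and -7.36 at 0.01. In terms of rank, C3 stood above 69.3% to 70.5% of the genes of each MDA-MB-231 library and above 16.7% to 22.5% of those of each 231-BR library. Among the 11418 genes tested with a mean of at least 1 FPKM in either line, 4 had a lower log2 fold change than C3. This place is a description, since C3 was chosen on the same contrast. In bulk RNA, fewer cells with the transcript and less transcript per cell cannot be told apart.

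C3 lies on the minus strand of chromosome 19 (chr19:6677704-6730562 in GRCh38, GENCODE 29). The expressed genes next to it did not share its direction. SLC25A23 and TNFSF9 on the one side had log2 fold changes of 1.78 and 3.11, and GPR108 and TRIP10 on the other side had 0.31 and 0.49. The median of the 40 neighbours, taken from genes with a mean of at least 1 FPKM, was 0.58.

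**Figure D1:**
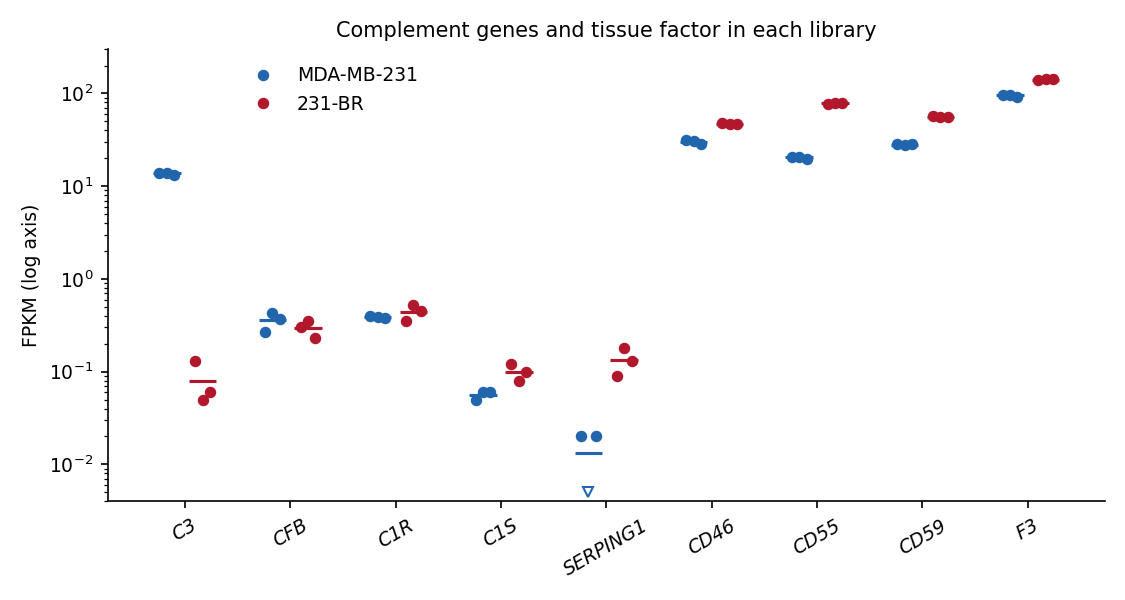
FPKM of each of the 9 genes (log axis) in the 3 MDA-MB-231 (blue) and the 3 231-BR libraries (red), with a bar at the mean and an open triangle for the library listed at 0. C3 is the gene that lies high in MDA-MB-231 and low in 231-BR cells, while CD46, CD55, CD59 and F3 lie higher in every 231-BR library. C1S and SERPING1 also lie higher in every 231-BR library, at very low values.

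The proteases that act ahead of C3 were low in both lines. CFB had 0.27, 0.43 and 0.37 FPKM in the MDA-MB-231 libraries and 0.30, 0.35 and 0.23 FPKM in the 231-BR libraries. C1R had 0.40, 0.39 and 0.38 FPKM in the MDA-MB-231 libraries against 0.35, 0.52 and 0.45 FPKM. For both genes the libraries of the lines overlapped. The log2 fold changes were -0.21 for CFB and 0.13 for C1R, and after quantile normalization they were -0.59 and -0.29, so that C1R changed sign. The value of CFB also moved with single libraries, to -0.09 without 231-BR replicate 3, -0.36 without MDA-MB-231 replicate 1 and -0.10 without MDA-MB-231 replicate 2. That of C1R was 0.25 without 231-BR replicate 1, 0.02 without 231-BR replicate 2 and 0.05 with a pseudocount of 1. In the GENCODE annotation, 45.0% of the exonic bases of CFB are shared with the protein-coding gene AL645922.1 on the same strand and 11.4% of those of C1R with C1RL. Reads could have been divided between them. The FPKM came from the authors' own gene set, and whether AL645922.1 was part of it was not checked. CFB lies on chromosome 6 (chr6:31945650-31952084, plus strand) and C1R on chromosome 12 (chr12:7080199-7092607, minus strand).

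C1S and SERPING1 lay lower still. C1S had 0.05, 0.06 and 0.06 FPKM in the MDA-MB-231 libraries and 0.12, 0.08 and 0.10 FPKM in the 231-BR libraries. SERPING1 was listed at 0.02, 0.00 and 0.02 FPKM in MDA-MB-231 cells and had 0.09, 0.18 and 0.13 FPKM in 231-BR cells. The libraries did not overlap for either gene, with 231-BR on the higher side, but both genes had a mean under 0.1 FPKM over all libraries and were left out of the fit. With 2 decimals in the file, the values of C1S are only a few steps of 0.01 FPKM apart. Within 231-BR cells the ranges of C3, C1S and SERPING1 overlapped, so that these genes have no order there, whereas in MDA-MB-231 cells C3 stood far above all of CFB, C1R, C1S and SERPING1. C1S lies beside C1R on chromosome 12 (chr12:6988259-7071032, plus strand) and SERPING1 on chromosome 11 (chr11:57597387-57614853, plus strand).

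The membrane regulators CD46, CD55 and CD59 were abundant in both lines and higher in 231-BR cells. CD55, also known as decay-accelerating factor, had 20.68, 20.72 and 19.87 FPKM in the MDA-MB-231 libraries and 77.45, 78.36 and 78.37 FPKM in the 231-BR libraries. The means of 20.4 ± 0.48 and 78.1 ± 0.53 FPKM (SD, n = 3 each) gave a ratio of 3.82 and a log2 fold change of 1.93. CD59, or protectin, had 28.26, 27.72 and 28.53 FPKM in MDA-MB-231 cells and 56.75, 55.94 and 55.48 FPKM in 231-BR cells. Its log2 fold change was 0.99, between 28.2 ± 0.41 and 56.1 ± 0.64 FPKM (SD, n = 3 each). CD46, the membrane cofactor protein, differed least of these genes. It had 31.65, 30.67 and 28.69 FPKM in MDA-MB-231 cells and 47.81, 47.28 and 47.08 FPKM in 231-BR cells, a log2 fold change of 0.64 between means of 30.3 ± 1.51 and 47.4 ± 0.38 FPKM (SD, n = 3 each). Under the alternatives run the log2 fold change ran from 1.88 to 1.94 for CD55, from 0.94 to 1.00 for CD59 and from 0.59 to 0.67 for CD46.

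The order of the regulators was turned around between the lines. In MDA-MB-231 cells the level of CD46 was followed by those of CD59 and CD55, and the lowest CD46 library (28.69 FPKM) lay only just above the highest CD59 library (28.53 FPKM), so that CD46 and CD59 are close to their spread. In 231-BR cells CD55 came first, then CD59, then CD46, with no overlap of their libraries. CD55 made up 25.7%, 26.2% and 25.8% of the summed FPKM of CD46, CD55 and CD59 in the MDA-MB-231 libraries and 42.6%, 43.2% and 43.3% in the 231-BR libraries. The sum itself was 78.9 ± 1.76 FPKM in MDA-MB-231 and 182 ± 0.544 FPKM in 231-BR cells (SD, n = 3 each).

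Of all 9 genes, 6 were higher in every 231-BR library, 1 was lower in every 231-BR library and 2 overlapped. Among the 13465 genes tested, the libraries did not overlap for 78.4%, for 44.9% with 231-BR on the higher side and for 33.5% with 231-BR on the lower side. The genes were chosen on this contrast, and nothing is read from the count.

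The RefSeq promoters (GRCh38.p14) were matched for 6 of the 9 genes, CFB, C1R, CD46, CD55, CD59 and F3, and were not used for C3, C1S and SERPING1. The 250 bases ahead of the start were searched on both strands for a GC box (the letters GGGCGG), an AP-1 motif (spelled TGANTCA, with N for any base), a TATA box (the letters TATAAA), the palindromes GAS (spelled TTCNNNGAA) and C/EBP (spelled TTGCNNCAA) and, by their names alone, the ISRE and the NF-kB motif. The sequences of CD55 and F3, which were high in both lines, and of CFB, which was low in both, are shown to set their motifs side by side. Capitals mark the matches, which nowhere overlapped within these windows.
CD55 (chr1:207321428-207321677, plus strand): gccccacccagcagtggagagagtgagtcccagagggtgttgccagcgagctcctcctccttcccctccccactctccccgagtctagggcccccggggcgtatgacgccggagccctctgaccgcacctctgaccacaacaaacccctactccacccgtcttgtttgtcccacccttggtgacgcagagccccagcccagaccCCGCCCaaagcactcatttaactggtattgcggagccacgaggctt
F3 (chr1:94541760-94542009, minus strand): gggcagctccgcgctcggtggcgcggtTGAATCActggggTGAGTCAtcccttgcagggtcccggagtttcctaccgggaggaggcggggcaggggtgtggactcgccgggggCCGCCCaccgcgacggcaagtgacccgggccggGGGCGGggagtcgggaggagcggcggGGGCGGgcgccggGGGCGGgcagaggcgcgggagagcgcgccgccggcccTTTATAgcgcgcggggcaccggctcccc
CFB (chr6:31945845-31946094, plus strand): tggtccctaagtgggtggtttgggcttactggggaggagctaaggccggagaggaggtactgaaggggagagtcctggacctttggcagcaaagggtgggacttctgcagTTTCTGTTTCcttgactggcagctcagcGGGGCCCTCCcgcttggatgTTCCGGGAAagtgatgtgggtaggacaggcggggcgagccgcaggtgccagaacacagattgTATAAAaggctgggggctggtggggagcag
The CD55 window held 1 GC box, and no other of the motifs was found in it. The F3 window held 4 GC boxes, 2 AP-1 motifs and 1 TATA box, and 78.0% of its bases were G or C. The CFB window held 1 match each of the NF-kB, GAS, ISRE and TATA motifs and no GC box. A GC box was also found for CD46 and, at 1 of its 4 annotated starts, for CD59. GAS motifs were also found for C1R and CD59, and AP-1 motifs for CD59, each at some of their annotated starts. Among all 35116 windows of the table, 42.6% held a GC box, 10.7% a TATA box, 9.96% an NF-kB motif, 6.57% an AP-1 motif, 6.57% a GAS motif, 3.02% an ISRE and 1.62% a C/EBP motif. A match is a stretch of letters and was not tested as a binding site.

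CD55 (chr1:207321376-207386804) and CD46 (chr1:207752057-207795513), both on the plus strand, belong to the cluster of complement regulator genes on the long arm of chromosome 1. CD46 was the next expressed gene after CD55. Ahead of CD55, C4BPB had a log2 fold change of 4.0, YOD1 of 0.96 and PFKFB2 of 1.23, while PLXNA2 and LAMB3 beyond CD46 had -0.75 and -0.50. CR1 and CR2, the complement receptors of the cluster, reached at most 0.02 and 0.11 FPKM. The median log2 fold change of the 40 expressed neighbours was 0.38 for both CD55 and CD46, with 32 of 40 above 0. As CD55 and CD46 stand next to each other, their neighbours are mostly the same genes, C4BPB among them, and the equal values are not separate results. CD59 lies on chromosome 11 (chr11:33703010-33736491, minus strand), where the median of its neighbours was 0.50 and 37 of 40 were above 0. Over all genes tested the median was 0.08, so that most of them lay above 0 as well. These genes reach down to a mean of 0.1 FPKM, whereas the neighbours had at least 1 FPKM. The share of genes above 0 at the level of the neighbours was not counted. The part of these neighbourhoods in the values of the genes was not tested.

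**Figure D2:**
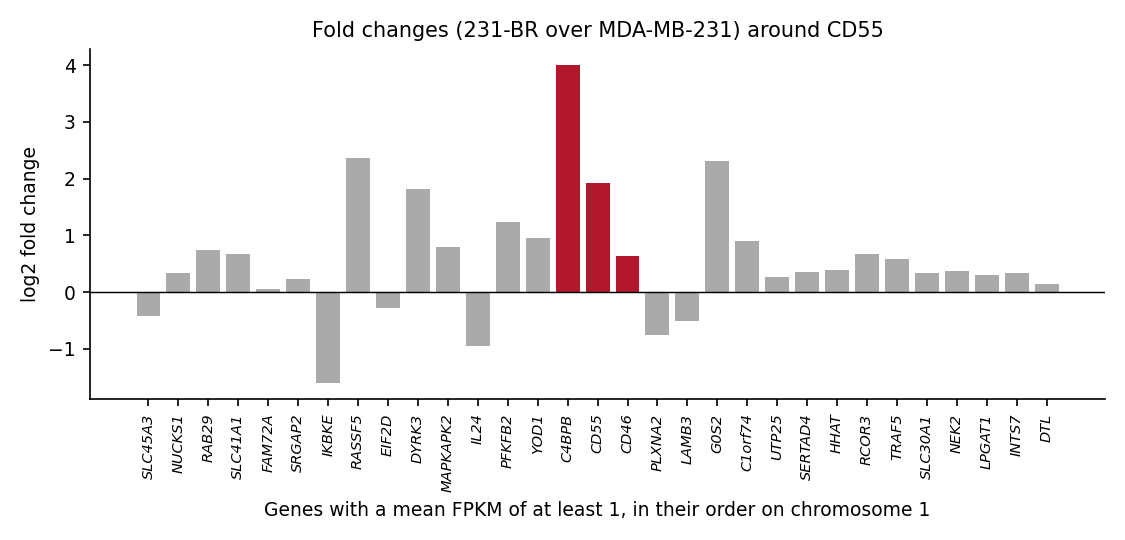
Log2 fold changes, 231-BR over MDA-MB-231, of CD55 and the 15 genes on either side of it with a mean of at least 1 FPKM, in their order on chromosome 1, with the complement regulators C4BPB, CD55 and CD46 in red. Of the 30 neighbours 24 lie above 0, as do most of all genes tested, and C4BPB has the tallest bar shown.

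For the rest of the pathway, a list of 84 other genes of complement and coagulation was used, of which 62 were in the table and 26 had a mean of at least 0.1 FPKM and were tested with limma. Of the 26, 13 were higher in 231-BR cells, 10 were lower and 3 did not pass an adjusted p of 0.05. Over all genes tested, 77.3% were called, 44.4% higher and 32.9% lower. With a log2 fold change over 1 as a further criterion, 9 of the 26 were higher and 2 lower, where 10.9% and 4.34% of all genes tested met it. The median log2 fold change was 0.16 for the list and 0.08 for all genes tested. The count with the fold criterion rested on low genes in part, and it was 5 higher and 0 lower with a pseudocount of 1. Without MDA-MB-231 replicate 1 it was 4 lower in place of 2. Another 30 of the 62 genes reached at most 0.1 FPKM in every library.

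C4BPB encodes the beta chain of the C4b-binding protein, a complex that inhibits the classical convertase. C4BPA, the gene of the alpha chain, was on the list but had no values in these data, so the complex as a whole cannot be judged. C4BPB had 0.53, 0.49 and 0.56 FPKM in the MDA-MB-231 libraries and 9.85, 9.48 and 10.48 FPKM in the 231-BR libraries. It rose from 0.527 ± 0.035 to 9.94 ± 0.51 FPKM (n = 3 each, SD), or by 4.0 on the log2 scale (standard error 0.077, adjusted p = 5.8e-11 from limma). CLU, clusterin, which binds the terminal complex, had 18.3 ± 0.44 FPKM in MDA-MB-231 and 17.8 ± 0.17 FPKM in 231-BR cells (SD, n = 3 each), and its libraries overlapped (log2 fold change -0.04, adjusted p = 0.32 from limma). CFI, the protease that cuts C3b with the help of cofactors such as CD46, reached at most 0.04 FPKM in any library.

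Of the remaining components, CFD, the protease that activates factor B, rose from 0.567 ± 0.081 to 1.58 ± 0.26 FPKM (n = 3 each, SD), or by 1.33 on the log2 scale (adjusted p = 1.3e-05 from limma). CFP, or properdin, which stabilizes the alternative convertase, fell by 0.90 on the log2 scale (adjusted p = 0.0037 from limma) at a level of at most 0.39 FPKM. C5, the component cleaved after C3, fell by 0.55 (adjusted p = 0.0065 from limma) at a level of at most 0.87 FPKM. C2 reached 0.08 FPKM, C4A 0.24 FPKM and C4B 0.12 FPKM at most, and the last are near copies of each other whose reads may have been divided. Of the receptors of the C3 and C5 fragments, C3AR1 had 0.0700 ± 0.050 FPKM in MDA-MB-231 and 0.297 ± 0.070 FPKM in 231-BR cells (SD, n = 3 each; log2 fold change 1.25, adjusted p = 0.0011 from limma), while C5AR1 reached at most 0.07 FPKM. At these low levels the size of a difference rested on the pseudocount, and with a pseudocount of 1 the log2 fold changes were 0.71 for CFD, -0.22 for CFP, -0.24 for C5 and 0.28 for C3AR1. With 0.01 that of C3AR1 was 2.15, and after quantile normalization that of C5 was -0.99.

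**Figure D3:**
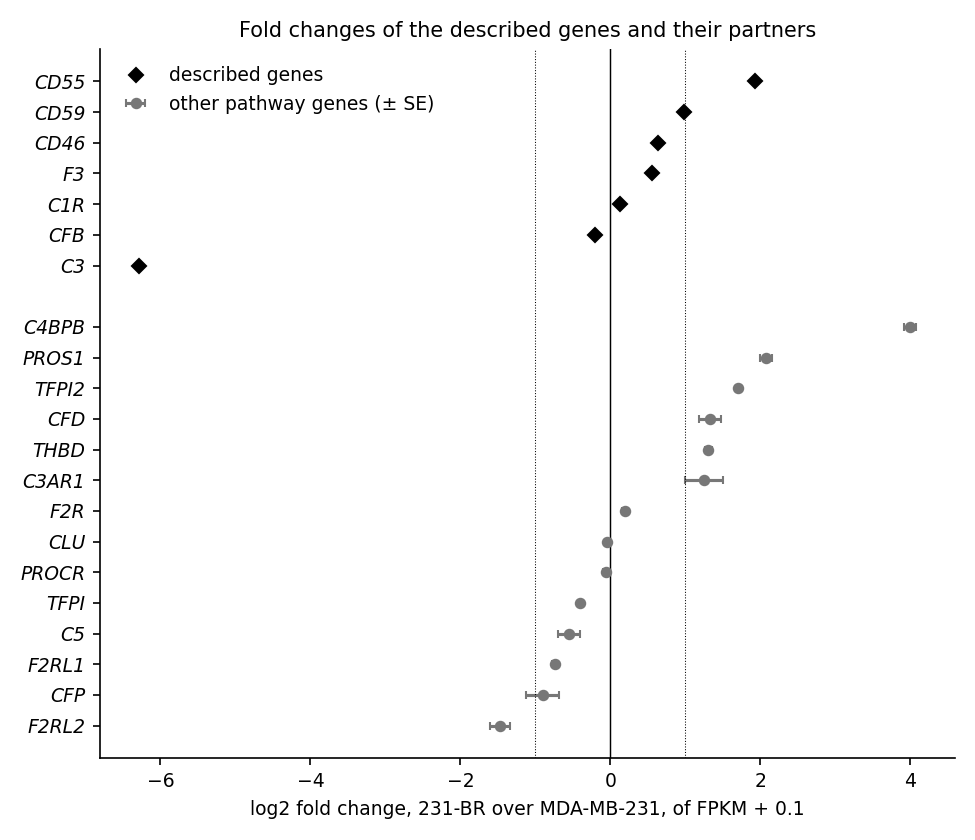
Log2 fold changes, 231-BR over MDA-MB-231 (of FPKM + 0.1), of the 7 described genes that were fitted (black diamonds, no test) and of their tested partners (grey circles, bars give the standard error). Dotted lines mark -1 and 1, and C3 lies at -6.29 while C4BPB lies at 4.0.

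F3 had the highest level of the 9 genes in both lines and was higher in 231-BR cells. It had 97.52, 96.40 and 92.73 FPKM in the MDA-MB-231 libraries and 139.77, 142.18 and 142.07 FPKM in the 231-BR libraries. The groups did not overlap, and the means of 95.6 ± 2.51 and 141 ± 1.36 FPKM (SD, n = 3 each) gave a ratio of 1.48 and a log2 fold change of 0.56. F3 ranked between 799 and 861 in the MDA-MB-231 libraries and between 496 and 503 in the 231-BR libraries, counted from the most expressed gene. It lies on chromosome 1 (chr1:94529225-94541800, minus strand), far from the regulator cluster, and the median of its 40 neighbours was -0.07. Under the alternatives its log2 fold change stayed between 0.52 and 0.62.

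The inhibitors of the tissue factor pathway moved in both directions. TFPI, which blocks the complex of tissue factor with factor VIIa, had 33.52, 32.27 and 33.21 FPKM in MDA-MB-231 and 25.56, 25.10 and 24.54 FPKM in 231-BR cells, and fell by 0.40 on the log2 scale (standard error 0.030, adjusted p = 8.5e-07 from limma). TFPI2, a related inhibitor of serine proteases found in the matrix, rose from 9.18 ± 0.27 to 30.2 ± 0.29 FPKM (n = 3 each, SD), or by 1.71 on the log2 scale (adjusted p = 7.7e-11 from limma). The ratio of F3 to TFPI was 2.91, 2.99 and 2.79 in the MDA-MB-231 libraries and 5.47, 5.66 and 5.79 in the 231-BR libraries. Against the sum of TFPI and TFPI2, however, F3 stood at 2.27 ± 0.0794 and 2.56 ± 0.0385 (SD, n = 3 each). F10, the substrate of the complex, reached at most 0.13 FPKM. F7, the ligand of tissue factor, was on the list but had no values in these data.

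Genes of the thrombomodulin and protein C branch, which slows coagulation, differed as well. THBD, thrombomodulin, rose from 6.56 ± 0.26 to 16.4 ± 0.71 FPKM (n = 3 each, SD), or by 1.31 on the log2 scale (adjusted p = 4.5e-09 from limma). The ratio of F3 to THBD ran opposite to that of F3 to TFPI, with 14.6 ± 0.941 in MDA-MB-231 and 8.64 ± 0.343 in 231-BR cells (SD, n = 3 each). PROS1, protein S, the cofactor of activated protein C and a partner of the C4BPB chain in plasma, had 1.52, 1.88 and 1.83 FPKM in MDA-MB-231 and 7.82, 7.81 and 7.32 FPKM in 231-BR cells, and it rose by 2.08 on the log2 scale (adjusted p = 8.3e-09 from limma, standard error 0.083). PROCR, the receptor of protein C, had 22.5 ± 1.04 and 21.6 ± 0.71 FPKM (SD, n = 3 each), with overlapping libraries (log2 fold change -0.06, adjusted p = 0.18 from limma). Of the receptors that coagulation proteases cleave, F2R, the thrombin receptor, rose by 0.20 (adjusted p = 5.8e-04 from limma), whereas F2RL1 fell by 0.74, from 47.9 ± 0.53 to 28.5 ± 1.02 FPKM (SD, n = 3 each; adjusted p = 1.2e-08 from limma). F2RL2 fell by 1.47 (adjusted p = 3.4e-06 from limma), from 1.59 ± 0.19 to 0.510 ± 0.079 FPKM (SD, n = 3 each). The log2 fold change of F2RL2 was -0.78 with a pseudocount of 1, and that of F2R was 0.12 after quantile normalization.

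**Figure D4:**
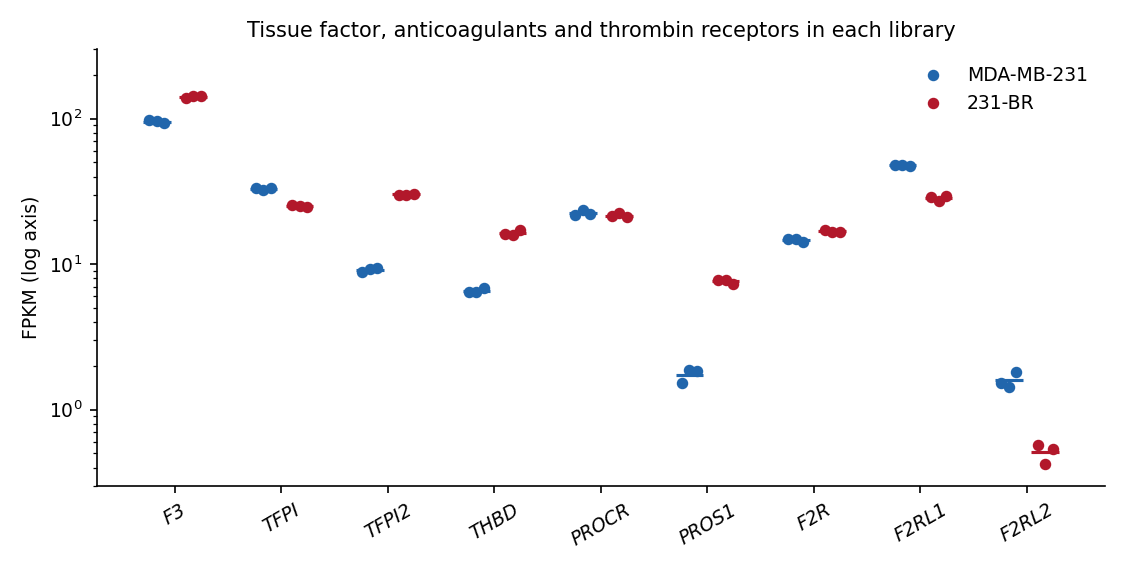
FPKM (log axis) of F3 and of anticoagulant and protease receptor genes in the 3 MDA-MB-231 (blue) and the 3 231-BR libraries (red), with a bar at the mean. F3, TFPI2, THBD, PROS1 and F2R lie higher and TFPI, F2RL1 and F2RL2 lower in every 231-BR library, and PROCR overlaps.

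The genes whose 6 values followed those of a described gene most closely were found by the Euclidean distance of the log2 values after the mean of each gene was taken off, among genes with a mean of at least 1 FPKM. For C3 these were GPR176 (distance 0.502), KRT7 (0.651) and TGFBI (0.670). KRT7 fell from a mean of 77.0 to 0.713 FPKM and TGFBI from 94.6 to 0.987 FPKM, while GPR176, with 7.17 FPKM in MDA-MB-231 cells, was listed at 0 in every 231-BR library. For CD55 they were KHDRBS3 (0.072), LGR4 (0.073) and CRYBG1 (0.075), and for F3 they were VIPAS39 (0.028), AMOTL1 (0.035) and FSTL1 (0.038). The nearest to CFB were JMJD7 (0.221), COQ8B (0.285) and CDPF1 (0.290). With 2 lines and 3 libraries of each, a gene comes near C3, CD55 or F3 largely by having a similar difference between the lines. The distance that is left also holds the spread within the lines. For C3 this includes its low 231-BR values of 0.13, 0.05 and 0.06 FPKM. The libraries of CFB overlapped, so that its distances rest largely on the spread within the lines, at low values of CFB.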

How the data were processed

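For each line, MDA-MB-231 and 231-BR, 3 libraries of poly(A) RNA were sequenced on the BGISEQ-500 platform. The authors filtered the reads, aligned them with HISAT2 2.0.4 to the genome and with Bowtie2 2.2.5 to a gene set, and deposited FPKM values per gene with 2 decimals and no further scaling. The submitters' processing notes name GRCh38.p12, and the program that computed the FPKM is not given in the sources used here. Read counts were not used here, so depth is unknown. Low values were looked at for a common step: of 1238 genes with all libraries above 0 and none over 0.3 FPKM, 166 were equal in 231-BR replicates 1 and 2, and no step was read off. The 6 per-sample files hold the same values as the table.

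Libraries were grouped by their titles. The number inside the cell line field counts up from 231 to 233 over the replicates of each line, so this field was not used. In limma 3.58.1 (R 4.3.3), log2(FPKM + 0.1) was taken for the 13465 genes whose mean reached 0.1 FPKM and fitted with 1 term for the line (eBayes with trend) and adjusted by the Benjamini-Hochberg method over all of them. The study's own test used counts, and FPKM values need a test on the log scale. Fold changes of low genes are drawn toward 0 by the pseudocount. An exact permutation test of 3 against 3 cannot go below p = 0.1.

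The genes described, the lists and the rule for named genes (all described genes, direct partners, and list genes past both criteria with a mean of at least 1 FPKM in either line) were chosen with earlier results of these data known. A gene of the list that the rule names is counted with the list but not reported here. In simulated data for this comparison, 194 of 200 changed genes among 13342 were called in the right direction and 10 unchanged genes were called. The changed genes were all at about 1 FPKM or more, with independent normal noise, and were far fewer than the genes called in the real data. The simulation therefore does not show how reliable the calls reported here are, least of all those of low genes. Gene positions and exon overlaps came from GENCODE 29, gene order and promoters from RefSeq. Alternatives were pseudocounts of 1 and 0.01, other filters, median-of-ratios and quantile scaling, no trend, a replicate block, each library left out, and a log2 fold criterion of 1.5. Figures were drawn with Python 3.11.15 and matplotlib 3.10.9.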

Additional observations from a re-analysis of the deposited data

How the results depend on the processing

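C3 stayed lower and CD46, CD55, CD59 and F3 stayed higher in 231-BR cells under every alternative run. C1R was the only described gene that reversed, from 0.13 to -0.29 after quantile normalization, and the cause was not tested. The log2 fold change of CFB lay between -0.59 and -0.07. Quantile normalization moved the median of all genes tested from 0.08 to -0.06. CLU and PROCR passed the adjusted p of 0.05 only after scaling, with log2 fold changes of -0.09 and -0.11 after median-of-ratios scaling and -0.11 and -0.13 after quantile normalization, and every other gene outside the 9 whose adjusted p is printed kept its direction and its side of that threshold under the alternatives in which it was tested.

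Counts with the fold criterion moved most. Of all genes tested, 720 were higher and 277 lower with a pseudocount of 1, 949 and 345 with a filter at a mean FPKM of 1, and 820 and 296 with a log2 fold change over 1.5, against 1467 and 584, and 947 were lower after quantile normalization. The pathway list gave 5 higher and 0 lower with a pseudocount of 1, 6 lower with a pseudocount of 0.01 and after quantile normalization, 1 lower with the filter at 1, which tests fewer genes and gave 4 lower by the adjusted p alone, and 4 higher and 0 lower at 1.5. With each library left out the list had 8 to 10 higher and 2 to 4 lower genes, with 4 without MDA-MB-231 replicate 1. The GPI anchor list gave 7 higher by the adjusted p and 1 lower with the fold criterion after quantile normalization, and 0 higher at 1.5. By the adjusted p alone, 5973 higher and 4433 lower genes in all became 4825 and 5749 after quantile normalization. All other counts were within 1.5 times the reported ones.

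The replicate numbers do not pair the libraries: deviations of same-numbered libraries from their line means correlated at 0.087, -0.040 and -0.106 for replicates 1, 2 and 3, and 2 of 6 libraries correlated best with their own number. The replicate block gave 6015 higher and 4487 lower genes by the adjusted p, and 13 higher and 10 lower genes of the pathway list.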

Other observations

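CD55 and CD59 are held in the membrane by a glycosylphosphatidylinositol (GPI) anchor, and the genes that build and attach it were looked at as a further list. All 29 genes of the list were tested, and 28 had a mean of at least 1 FPKM in either line. With limma, 11 were higher in 231-BR cells, 14 were lower and 4 did not pass an adjusted p of 0.05, where 44.4% of all genes tested were called higher and 32.9% lower. The median log2 fold change of the list was -0.15. Single genes went both ways, among them PIGC at 0.67, PIGY at 0.36, GPAA1 at 0.21, PIGS at -0.44 and PIGK at -0.28. PIGP, a subunit of the enzyme of the first step, rose from 3.17 ± 0.40 to 8.30 ± 0.59 FPKM (n = 3 each, SD), or by 1.37 on the log2 scale (adjusted p = 3.1e-07 from limma), and was the only gene of the list past the fold criterion. PIGA, the catalytic subunit of the same enzyme, fell by 0.23 (adjusted p = 0.0076 from limma). PIGT, a subunit of the transamidase that attaches the finished anchor, fell by 0.62, from 119 ± 4.41 to 77.3 ± 2.02 FPKM (SD, n = 3 each; adjusted p = 4.8e-08 from limma).

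SUSD4, a membrane inhibitor of complement, had 0.270 ± 0.12 FPKM in MDA-MB-231 and 0.900 ± 0.11 FPKM in 231-BR cells (n = 3 each, SD) and rose by 1.48 on the log2 scale (adjusted p = 1.4e-04 from limma). C1QBP, a mitochondrial protein that also binds the head of C1q, had 358 ± 6.59 and 299 ± 4.73 FPKM (SD, n = 3 each) and fell by 0.26 (adjusted p = 2.7e-06 from limma). F12, factor XII of the contact pathway, rose from 0.787 ± 0.11 to 1.64 ± 0.11 FPKM (SD, n = 3 each), just short of the fold criterion with a log2 fold change of 0.98 (adjusted p = 2.4e-05 from limma). With a pseudocount of 1 the log2 fold changes of SUSD4 and F12 were 0.58 and 0.56, and after quantile normalization those of F12, C1QBP and PIGA were 0.55, -0.10 and -0.43. SUSD4, C1QBP and F12 were named after their values had been seen. PIGA and PIGT, like them, were named outside the rule for named genes.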
